A study of Mus musculus with 54 samples.

Results

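The genes described here are C1qa, C1qb and C1qc, which encode the chains of complement C1q, together with 7 genes used as markers of microglia (Csf1r, Cx3cr1, Aif1, Tyrobp, Trem2, P2ry12 and Ctss). Every probe set that the platform annotation assigns to one of these 10 symbols was taken, which gave 16 of the 34945 probe sets with a single gene symbol and 10 of 18193 genes. C1qb and Csf1r had 3 probe sets each, Cx3cr1 and Trem2 had 2 each, and the other 6 genes had 1. For each gene the probe set with the highest mean over 54 arrays is the one reported unless another is named.

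The series measured total RNA of male mice of 6 inbred strains on Affymetrix 3' arrays, in hippocampus, striatum and brainstem taken at postnatal day 60. The strains were C57L/J, C57BLKS/J, C57BL10/J, BalbC/J, C3H HeJ and C57BL6/J, and differences are given against the last. In each tissue a strain had 3 arrays, each of RNA pooled from 3 mice. For 1 array the mice had been tested at day 50 for prepulse inhibition, the reduction of a startle response by a weaker preceding sound, and for the other 2 arrays they had not. The labels name no engineered allele and no drug in any group. Each strain had 12 mice, 6 of them tested, so the pools of different tissues share mice, and agreement between tissues is not independent. The labels do not say which pools share them. The p-values rest on the spread among pools of one strain, and the number of arrays limits the precision.

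C1q is the recognition molecule of the classical complement pathway: it binds immune complexes, dying cells and, in developing brain, synapses, and so starts the cleavage of later components. Its A, B and C chains come from neighbouring genes, and in the brain microglia are their main source. Microglia are the resident macrophages of the brain. They depend on signalling through the receptor encoded by Csf1r, sense neurons through Cx3cr1 and injury through P2ry12, and pass signals from receptors such as Trem2 through the adaptor Tyrobp.

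Values are log2 intensities as deposited and are called levels below. A difference was called when limma's Benjamini-Hochberg adjusted p was under 0.05 over all genes tested in a tissue. All 10 genes were tested in each tissue, among 12317 hippocampal, 12320 striatal and 12484 brainstem genes. Of these 10, 9 genes lay far above the low end of their arrays, with lowest values between 6.22 for C1qc and 11.19 for Ctss. The exception was Trem2, which averaged 3.45 (3.18 to 4.0), close to the arrays' 40th percentiles of 3.12 to 3.47. Its other probe set was above that percentile on 0 arrays, so for Trem2 the arrays give little more than a low level.

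The arrays carried the markers of the tissues their labels name. The lactase gene Lct was at 9.09 to 10.15 in hippocampus and above the 40th percentile on 0 arrays of striatum and brainstem, and the glycine transporter gene Slc6a5 was at 11.08 to 12.34 in brainstem and above that percentile on 0 arrays of the others. The dopamine receptor gene Drd2 was at 11.51 to 12.81 in striatum, against 5.44 to 7.72 in brainstem and 2.39 to 2.99 in hippocampus. Neurod6, Prox1 and Ppp1r1b were less exclusive, passing the 40th percentile on all 18 arrays of every tissue. No hippocampal value of Neurod6 was under 13.52, yet its striatal values spread from 4.5 to 10.85. The cause of that spread was not tested. Prox1 was at least 8.65 in hippocampus and at most 7.99 elsewhere. Ppp1r1b was at least 12.98 in striatum and at most 9.37 elsewhere. A single array stood apart in the levels of the 10 genes, the second untested C3H HeJ brainstem array. On it the 10 genes averaged -0.99 log2 units from their 18-array medians, whereas the next lowest brainstem array was at -0.31. It was the lowest of 18 arrays for 7 of the 10 genes. The same array was lowest for 17 further microglial genes (-0.67, next -0.11), 7 oligodendrocyte markers (-0.60, next -0.15) and 7 endothelial markers (-0.40, next -0.15). It was highest for 9 cerebellar markers (4.12, next 1.17). The part of this in the brainstem results was not tested. Calls of the 10 genes in brainstem that changed without this array are given with each gene. In whole tissue, fewer microglia and less RNA per microglial cell cannot be told apart.

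**Figure D1:**
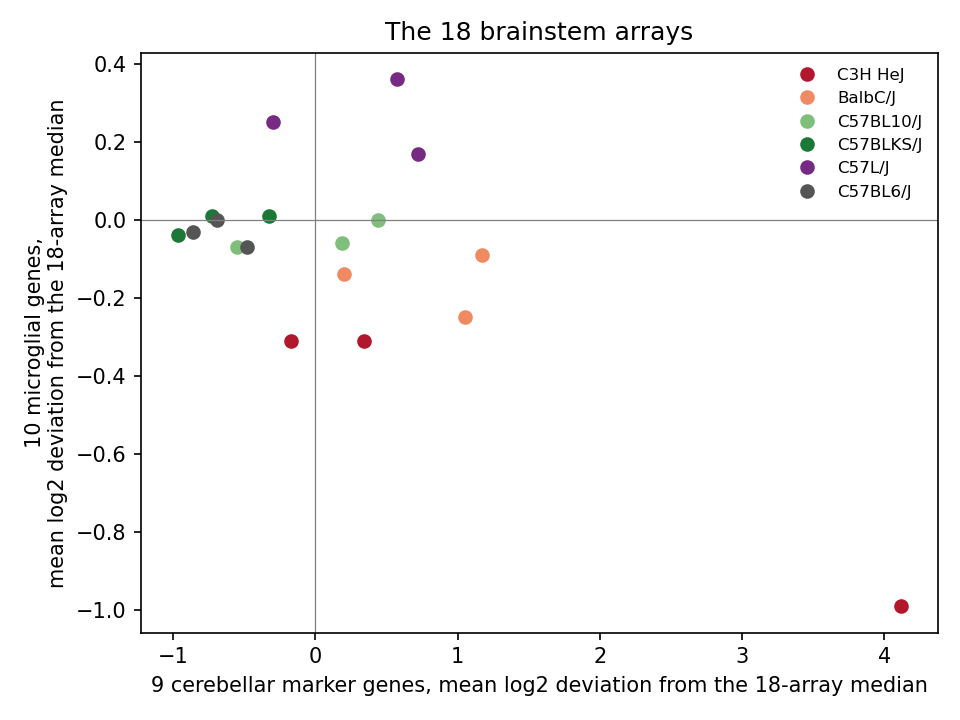
Mean deviation of the 10 genes from their 18-array medians (vertical axis, log2 units) against that of 9 cerebellar markers (horizontal axis, log2 units), 1 point per brainstem array, coloured by strain. The second untested C3H HeJ array sits alone, at -0.99 for the 10 genes and 4.12 for the cerebellar markers.

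In all 3 tissues C1qb and C1qc were lower in C3H HeJ, set against C57BL6/J, and C1qc was also lower in BalbC/J, at a level between those of the other 2 strains. C1qc differed from C57BL6/J by -2.39 to -2.04 log2 units in C3H HeJ and by -1.38 to -1.05 in BalbC/J. C1qa, the third chain's gene, was called different from C57BL6/J in neither strain. Of 7 oligodendrocyte markers tested, 5 were called lower in C3H HeJ hippocampus, 5 in its striatum and 4 in its brainstem (1 was higher). In BalbC/J hippocampus 6 were called lower, with 2 in its striatum and 0 in its brainstem (1 was higher). Of all genes, 10.4%, 5.11% and 7.71% were called lower in C3H HeJ hippocampus, striatum and brainstem, and 8.76%, 3.51% and 3.83% in BalbC/J. Called higher in brainstem were 11.6% in C3H HeJ and 8.46% in BalbC/J. Without the second untested C3H HeJ brainstem array the brainstem counts were 3 lower and 0 higher in C3H HeJ, and 4 lower and 1 higher in BalbC/J. In that fit 21.6% and 25.3% of all genes were called in either direction. Their mean deviation per array was -0.49 to -0.06 in C3H HeJ and -0.61 to -0.31 in BalbC/J hippocampus, against 0.18 to 0.47 in C57BL6/J hippocampus. In striatum it was -0.39 to -0.32 in C3H HeJ and -0.28 to -0.08 in BalbC/J, against 0.04 to 0.30 in C57BL6/J. In brainstem it was -0.60 to -0.04 in C3H HeJ and -0.14 to -0.06 in BalbC/J, against 0.07 to 0.09 in C57BL6/J. Their part in the C1q differences was not tested.

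The 250 bases upstream of the starts of C1qb and C1qc are shown here because these genes moved together. That of Aif1 is shown as a gene that moved the opposite way in C3H HeJ. They come from the RefSeq table of build GRCm38.p6, whose reference is C57BL/6J. All 3 genes lie on the minus strand, at chr4:136886201-136886450 for C1qb, chr4:136892915-136893164 for C1qc and chr17:35176053-35176302 for Aif1. Capitals mark the core letters of the motif of PU.1, a transcription factor that macrophages and microglia require, searched as GAGGAA on both strands, so that the reverse complement TTCCTC counts too.
C1qb: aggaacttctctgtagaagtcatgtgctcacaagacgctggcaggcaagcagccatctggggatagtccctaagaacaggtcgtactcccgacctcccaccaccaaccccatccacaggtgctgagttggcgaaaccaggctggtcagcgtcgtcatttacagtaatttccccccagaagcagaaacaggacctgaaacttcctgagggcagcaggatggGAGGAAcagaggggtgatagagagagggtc
C1qc: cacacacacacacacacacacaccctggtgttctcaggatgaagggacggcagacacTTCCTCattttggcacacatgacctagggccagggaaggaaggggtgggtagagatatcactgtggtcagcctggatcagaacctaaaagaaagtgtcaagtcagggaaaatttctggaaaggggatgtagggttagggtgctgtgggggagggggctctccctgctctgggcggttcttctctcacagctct
Aif1: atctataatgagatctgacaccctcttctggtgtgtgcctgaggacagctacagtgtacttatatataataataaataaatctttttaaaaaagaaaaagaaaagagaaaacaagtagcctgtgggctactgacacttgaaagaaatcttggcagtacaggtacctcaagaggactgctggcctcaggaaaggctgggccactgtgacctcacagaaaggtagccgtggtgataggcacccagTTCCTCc

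The motif begins 30 bases before the start in C1qb, 193 in C1qc and 7 in Aif1. Promoters of 7 of the 10 genes were searched. Besides C1qb, C1qc and Aif1, those of Trem2 and Ctss held the letters, and those of Cx3cr1 and P2ry12 did not. Across 32851 RefSeq promoter windows of the same length, 23.3% held them. The AP-1 motif TGANTCA does not overlap the first and reads the same on both strands. It was in 6.75% of all windows and, among the 7, in Trem2 alone. A match is a description of these letters in the reference, and the sequence of the other strains was not used here.

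C1qc showed the widest spread over strains of the 10 genes. In hippocampus its levels were 7.14, 6.98 and 6.82 in C3H HeJ, 7.96, 8.04 and 7.72 in BalbC/J and 9.11, 9.26 and 9.48 in C57BL6/J. No array of one of these strains overlapped another's. The 9 hippocampal arrays of C57L/J, C57BLKS/J and C57BL10/J lay at 8.60 to 9.39, all above the BalbC/J arrays and around those of C57BL6/J. C1qc differed by -2.30 ± 0.15 log2 units (SE) between C3H HeJ and C57BL6/J, a 4.94-fold lower level in C3H HeJ, with an adjusted p of 4.69e-08. In BalbC/J the difference was -1.38 ± 0.15 (adjusted p = 1.65e-05).

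In striatum C1qc was at 7.82, 7.56 and 7.92 in C3H HeJ, 8.80, 8.73 and 8.76 in BalbC/J and 9.62, 9.84 and 9.97 in C57BL6/J. The same 3 separate levels were present, each about 1 log2 unit from the next. C3H HeJ was 4.12-fold lower than C57BL6/J (-2.04 ± 0.12, adjusted p = 3.39e-08) and BalbC/J differed by -1.05 ± 0.12 (adjusted p = 4.36e-05). In brainstem the levels were 6.56, 6.77 and 6.22 in C3H HeJ, 7.25, 7.78 and 7.61 in BalbC/J and 8.94, 8.95 and 8.82 in C57BL6/J. Again no array overlapped between these strains. C3H HeJ was 5.23-fold lower (-2.39 ± 0.17, adjusted p = 2.96e-07) and BalbC/J differed by -1.36 ± 0.17 (adjusted p = 8.99e-05).

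Ordered by level, C1qc fell into the same steps in each tissue. C3H HeJ minus BalbC/J was -0.93 ± 0.15 in hippocampus (adjusted p = 0.000903), -1.0 ± 0.12 in striatum (6.56e-05) and -1.03 ± 0.17 in brainstem (0.00122). BalbC/J in turn stood below the next strain by 0.94 in hippocampus (C57BLKS/J), 0.97 in striatum (C57BL10/J) and 1.36 in brainstem (C57BL6/J), each of them called. Among the 4 strains above BalbC/J no pair next to each other in the order was called. C1qc, like C1qa, is measured by a single probe set, and whether the probes match the sequence of each strain was not tested.

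**Figure D2:**
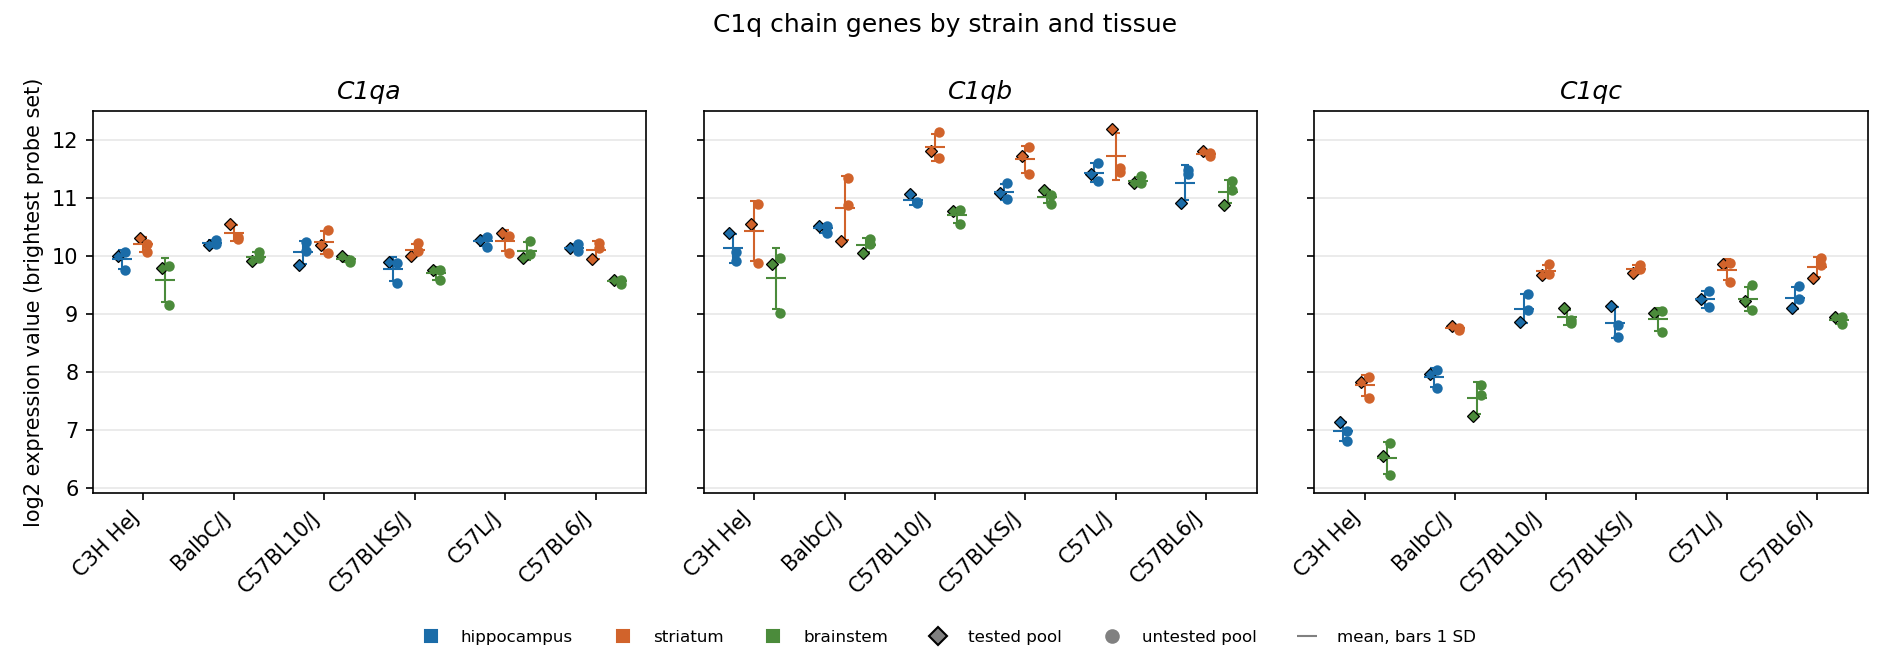
Levels of C1qa, C1qb and C1qc (vertical axis, log2 intensity) on each of 54 arrays, by tissue and strain, with bars at the strain means. C1qc shows 3 separate levels in each tissue, lowest in C3H HeJ and next in BalbC/J, while the C1qa arrays of all strains lie within 9.15 to 10.55.

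C1qb followed C1qc in C3H HeJ, with a smaller step in BalbC/J. In hippocampus its levels were 10.40, 10.07 and 9.91 in C3H HeJ, 10.51, 10.52 and 10.39 in BalbC/J and 10.91, 11.47 and 11.40 in C57BL6/J. All 6 arrays of C3H HeJ and BalbC/J lay below the 3 of C57BL6/J. C3H HeJ differed from C57BL6/J by -1.13 ± 0.14 (adjusted p = 4.06e-05) and BalbC/J by -0.79 ± 0.14 (adjusted p = 0.00128).

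In striatum C1qb was at 10.54, 9.87 and 10.89 in C3H HeJ, 10.25, 11.34 and 10.88 in BalbC/J and 11.81, 11.77 and 11.71 in C57BL6/J. The C57BL6/J arrays lay close together while those of both other strains spread over about 1 log2 unit. C3H HeJ differed by -1.33 ± 0.29 (adjusted p = 0.00614), and the BalbC/J difference of -0.94 ± 0.29 was not called (adjusted p = 0.0655), although it was on the mean of the 3 probe sets (-0.85, adjusted p = 0.0178). In brainstem the levels were 9.86, 9.97 and 9.01 in C3H HeJ, 10.05, 10.20 and 10.29 in BalbC/J and 10.88, 11.28 and 11.13 in C57BL6/J. No brainstem array of one of these strains overlapped another's. The differences were -1.48 ± 0.19 in C3H HeJ (adjusted p = 0.000123) and -0.91 ± 0.19 in BalbC/J (adjusted p = 0.00636). Without the second untested C3H HeJ array, C57BL10/J was called lower as well (-0.40, adjusted p = 0.0169). The difference of C3H HeJ from BalbC/J was not called in any tissue on this probe set, at -0.34, -0.39 and -0.57 in hippocampus, striatum and brainstem.

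The other 2 probe sets of C1qb were also called lower in C3H HeJ in all 3 tissues. On the one of second highest mean the hippocampal difference was -0.82, the striatal one -1.10 and that of brainstem -1.22. On the third they were -1.58, -1.60 and -1.82. For BalbC/J the probe sets differed more: the second called only hippocampus (-0.60), with -0.64 in striatum and -0.56 in brainstem, and the third called hippocampus (-1.18) and striatum (-0.97) but not brainstem (-0.79).

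C1qa lay within narrow limits. In striatum it was at 10.31, 10.21 and 10.06 in C3H HeJ, 10.55, 10.29 and 10.33 in BalbC/J and 9.94, 10.14 and 10.22 in C57BL6/J. The C3H HeJ and C57BL6/J arrays overlapped, and the 3 of BalbC/J lay above those of C57BL6/J. In brainstem it was at 9.79, 9.83 and 9.15 in C3H HeJ, 9.91, 9.97 and 10.07 in BalbC/J and 9.59, 9.52 and 9.59 in C57BL6/J. Here too BalbC/J lay above C57BL6/J, and the C3H HeJ arrays fell on both sides. C3H HeJ differed from C57BL6/J in hippocampus by -0.20 (adjusted p = 0.238) and BalbC/J by 0.08 (adjusted p = 0.724). For striatum these values were 0.10 (0.689) and 0.29 (0.209), and for brainstem 0.03 (0.945) and 0.42 (0.0733). C1qa did vary over the 6 strains in hippocampus (adjusted p = 0.0219, strain means over 0.48 log2 units) and brainstem (0.0443, over 0.52), and not past the threshold in striatum (0.372). Its lowest hippocampal mean was 9.77 in C57BLKS/J and its highest brainstem mean was 10.08 in C57L/J. Without the second untested C3H HeJ brainstem array, C1qa was called higher in brainstem than in C57BL6/J in 4 strains: by 0.25 ± 0.08 in C3H HeJ (adjusted p = 0.0476), 0.42 in BalbC/J (0.00113), 0.37 in C57BL10/J (0.00665) and 0.52 in C57L/J (0.000503).

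Whether the levels of the C1q genes differed unequally between strains was tested by taking their difference on each array, a choice made after the values had been seen. Relative to C1qa, the C3H HeJ difference of C1qc was -2.1 ± 0.10 in hippocampus, -2.14 ± 0.10 for striatum and -2.41 ± 0.12 for brainstem, with adjusted p-values of 7.87e-10, 6.52e-09 and 5.86e-09. In BalbC/J the same difference was -1.46, -1.34 and -1.77, called in each tissue. C1qb relative to C1qa was at -0.93, -1.43 and -1.51 in C3H HeJ and at -0.87, -1.23 and -1.33 in BalbC/J, also called in each tissue. The BalbC/J value in striatum (adjusted p = 0.0303) was lost on leaving out any 1 of 5 arrays. In C57BL10/J brainstem C1qb relative to C1qa was also called lower (-0.77, adjusted p = 0.00649). C1qc relative to C1qb was at -1.17 in C3H HeJ hippocampus and -0.90 in its brainstem, both called, and the -0.71 in striatum was not called (adjusted p = 0.0833). In BalbC/J it was called in hippocampus (-0.59, 0.0163) and not in striatum (-0.10, 0.905) or brainstem (-0.44, 0.136). A ratio within an array shows unequal differences in measured level and not which gene stayed the same. It cannot separate RNA from a probe mismatch in a strain, which was not tested.

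The 3 C1q genes lie next to each other on chromosome 4. Of the genes beside them with a probe set, Kdm1a, which encodes a histone demethylase, was called higher in C3H HeJ than in C57BL6/J in hippocampus (0.36, adjusted p = 0.0152) and brainstem (0.50, 5.49e-05), with 0.26 in striatum (0.0643). It was also higher in BalbC/J brainstem (0.38, 0.00071). Epha8, an ephrin receptor gene tested in striatum alone, was at 0.41 in C3H HeJ (0.0705), and Zbtb40 was called in no tissue. Tex46 and Lactbl1 did not pass the filter.

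Aif1, which encodes the calcium-binding protein Iba1 used to stain microglia, was higher in C3H HeJ in the forebrain tissues. In striatum its levels were 9.31, 9.17 and 9.11 in C3H HeJ, against 7.85, 8.12 and 7.95 in C57BL6/J. The C3H HeJ arrays stood above all 15 other striatal arrays, which lay at 7.85 to 8.36. The difference was 1.22 ± 0.10 (adjusted p = 1.75e-06), and against BalbC/J it was 0.95 (2.94e-05). In hippocampus Aif1 was at 7.97, 8.28 and 8.0 in C3H HeJ, against 7.56, 7.73 and 7.60 in C57BL6/J. These groups did not overlap, with a difference of 0.46 ± 0.09 (adjusted p = 0.0018). In brainstem it was at 6.78, 6.65 and 6.49 in C3H HeJ, against 6.59, 6.63 and 6.65 in C57BL6/J, and the difference was 0.02 ± 0.11 (adjusted p = 0.957).

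Aif1 was the only one of the 10 genes whose strain differences were called different between tissues in the fit over 54 arrays, in which 17.4% of all genes were called (adjusted p = 8.67e-07). Its C3H HeJ difference was larger in striatum than in brainstem by 1.21 ± 0.14 (adjusted p = 1e-07), where 7.74% of all genes were called. It was smaller in hippocampus than in striatum (-0.77 ± 0.14, adjusted p = 0.000424; 8.96% of all genes). Hippocampus and brainstem differed by 0.44 ± 0.14, which was not called (0.0595). The adjusted p for the other genes was between 0.0805 for Tyrobp and 0.806 for Trem2. Without the second untested C3H HeJ brainstem array, in a fit that called 21.9% of all genes, Tyrobp (0.0155) and P2ry12 (0.018) were called as well.

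Csf1r encodes the receptor for the growth factors CSF1 and IL-34. In striatum it was at 10.66, 10.77 and 10.62 in BalbC/J, against 10.31, 10.39 and 10.38 in C57BL6/J. The groups did not overlap, and the difference of 0.32 ± 0.09 was called (adjusted p = 0.0372), although it lost the call on leaving out any 1 of 8 of the 18 arrays. On the second probe set it was 0.14 (adjusted p = 0.466) and on the mean of the 3 probe sets 0.18 (0.189), neither called. With no filter the call was lost as well (0.0567). C3H HeJ stood at 10.34, 10.23 and 10.42, with C3H HeJ minus BalbC/J at -0.35 ± 0.09 (adjusted p = 0.0196), a call lost without any 1 of 3 arrays. That call was also lost on the second probe set (-0.28, 0.0636). In brainstem Csf1r was at 9.24, 9.11 and 8.54 in C3H HeJ, against 9.62, 9.71 and 9.52 in BalbC/J. The difference of -0.66 ± 0.13 was called (0.00585), and it was -0.45 and still called without the lowest C3H HeJ array. Its differences from C57BL6/J in brainstem were -0.25 in C3H HeJ and 0.41 ± 0.13 in BalbC/J (0.0576). Without that array the BalbC/J difference of 0.41 was called (0.000442), as was 0.29 in C57L/J (0.0117).

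P2ry12 encodes a purine receptor with which resting microglia sense released nucleotides. In hippocampus it was at 9.51, 9.90 and 9.77 in C57L/J, against 9.03, 9.38 and 9.37 in C57BL6/J. The groups did not overlap, with C57L/J higher by 0.46 ± 0.09 (adjusted p = 0.0037). In striatum it was at 9.77, 10.18 and 9.70 in C57L/J, against 9.19, 9.39 and 9.39 in C57BL6/J (0.56 ± 0.12, adjusted p = 0.0175). C3H HeJ was also above C57BL6/J in striatum, at 9.85, 9.63 and 9.72 (0.41 ± 0.12, 0.0319), a call lost without any 1 of 5 arrays. It was lost too under median centring (0.38, 0.0565) and quantile normalization (0.36, 0.0572). The C57L/J call in striatum was lost without any 1 of 3. In brainstem P2ry12 was at 7.59, 7.68 and 7.56 in C57BL10/J, below every other brainstem array, against 8.12, 8.05 and 7.95 in C57BL6/J. That difference of -0.43 was not called (0.259), but without the second untested C3H HeJ array it was (0.0284), together with 0.54 in C3H HeJ (0.00912). The brainstem test over 6 strains gave 0.0537 with that array and 0.000425 without it.

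Ctss encodes cathepsin S, a protease of macrophage lysosomes. Its highest mean in each tissue was that of C57L/J. In hippocampus it was at 12.09, 12.21 and 12.00 in C57L/J, against 11.66, 11.63 and 11.67 in C57BL6/J, a difference of 0.45 ± 0.07 (adjusted p = 0.00146). No other hippocampal array reached the lowest of C57L/J. In striatum it was at 12.24, 12.17 and 11.94 in C57L/J, against 11.72, 11.76 and 11.85 in C57BL6/J. The difference of 0.34 ± 0.09 (0.0491) just passed, and was lost on leaving out any 1 of 15 of the 18 arrays. In brainstem it was at 12.25, 12.19 and 12.14 in C57L/J, against 11.71, 11.77 and 11.63 in C57BL6/J. That difference of 0.49 ± 0.13 was not called over all 18 arrays (0.0634) and was called without the second untested C3H HeJ array (2.93e-06). Also called without it were 0.36 in BalbC/J (2.57e-05), 0.26 in C57BL10/J (0.00228) and 0.19 in C3H HeJ (0.00928), the last of which was -0.04 with the array included. C3H HeJ minus BalbC/J was -0.40 and not called (0.0785) with the array, and -0.17 and called (0.0325) without it.

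Tyrobp, Cx3cr1 and Trem2 were called in no difference from C57BL6/J and in none between C3H HeJ and BalbC/J. The other pairs of strains were read only where they were next to each other in level, and none of these was called. Tyrobp, the adaptor of Trem2, was lowest in C3H HeJ brainstem at 8.02, 8.06 and 6.49, against 8.29, 8.30 and 8.17 in C57BL6/J. The groups did not overlap, with 1 C3H HeJ array far below the others, and the difference of -0.73 ± 0.29 was not called (adjusted p = 0.0951). Its highest brainstem levels were 8.65, 9.02 and 8.76 in C57L/J, and the difference of 0.56 from C57BL6/J was called without that array (0.00124). The brainstem test over 6 strains missed the threshold with the array (0.0553) and passed without it (0.000161). Cx3cr1, the receptor for the neuronal chemokine Cx3cl1, varied over the 6 strains in striatum (adjusted p = 0.0169). Its striatal levels were 9.64, 9.85 and 9.72 in C57L/J and 9.66, 9.68 and 9.80 in C57BL10/J, against 9.25, 9.61 and 9.54 in C57BL6/J. The lowest striatal means were 9.34 in C3H HeJ and 9.38 in BalbC/J. In hippocampus its strain means lay between 10.01 and 10.21. Trem2, a receptor for lipids and lipoproteins, had strain means of 3.28 to 3.63 and no call in these differences or over the 6 strains.

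**Figure D3:**
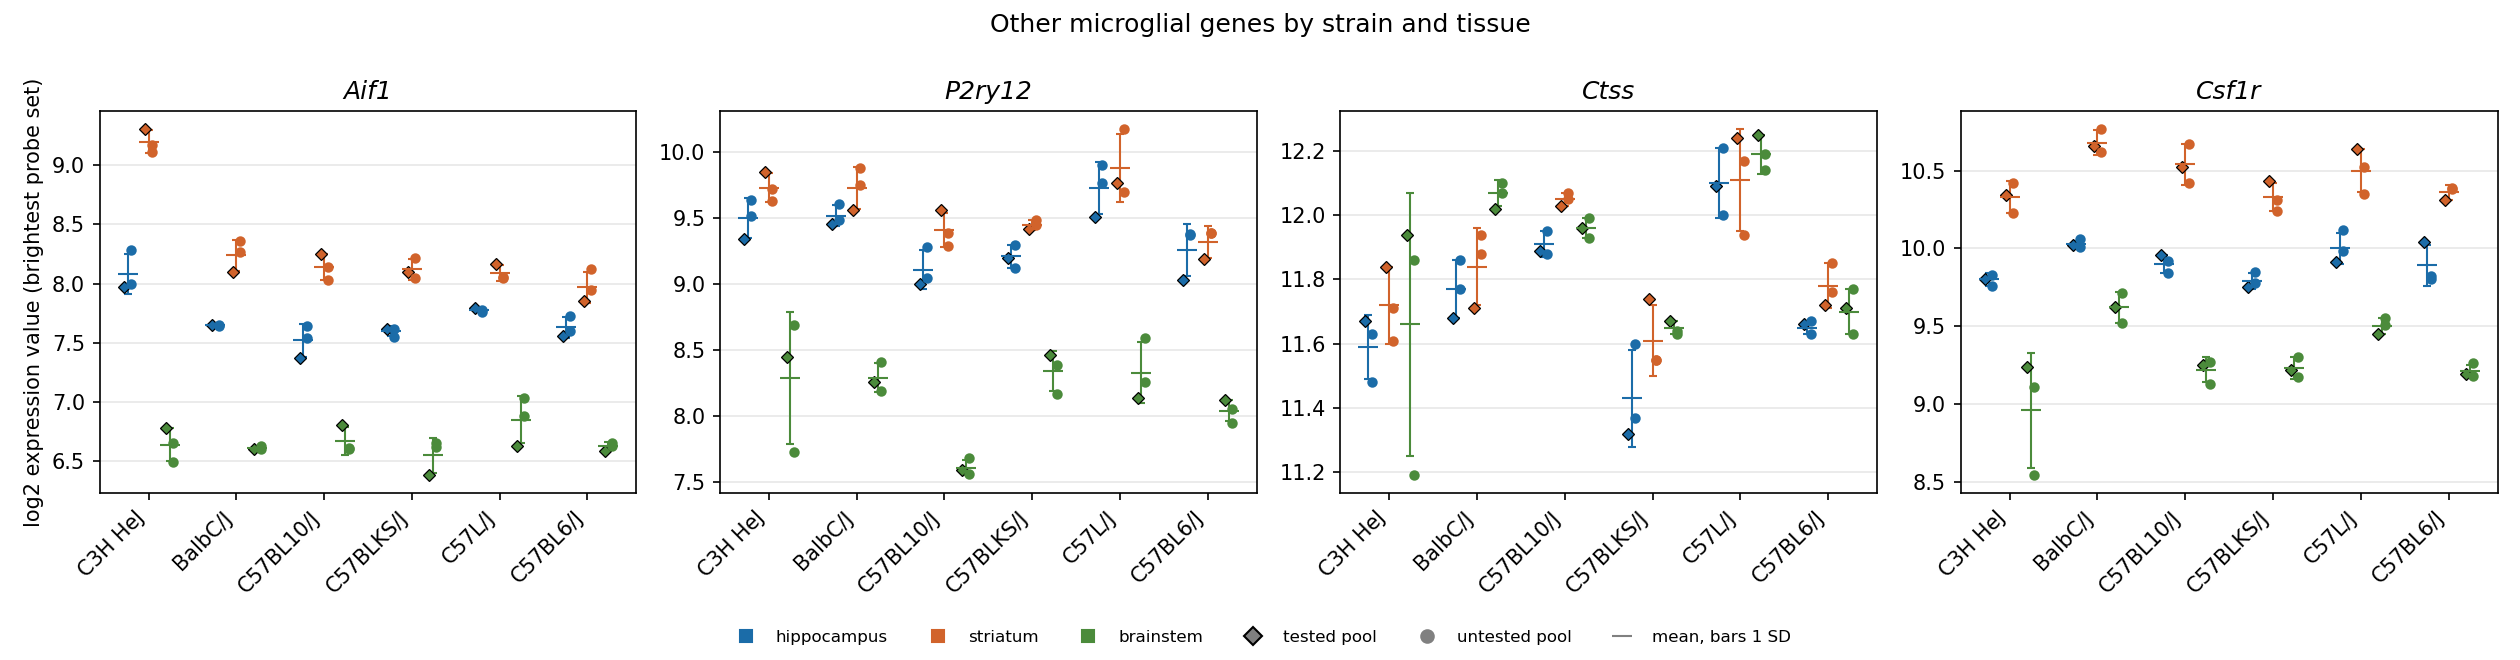
Levels of Aif1, P2ry12, Ctss and Csf1r (vertical axis, log2 intensity) on each of 54 arrays, by tissue and strain, with bars at the strain means. The 3 C3H HeJ arrays stand highest for Aif1 in striatum, at 9.11 to 9.31, and the C57L/J arrays highest for Ctss in hippocampus, at 12.00 to 12.21.

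Counted over the 10 genes, the test over all 6 strains called 6 in hippocampus, 7 in striatum and 5 in brainstem, against 31.2%, 26.2% and 23% of all genes. C1qb, C1qc and Ctss were called in all 3 tissues. Against C57BL6/J, C3H HeJ had 3 called in hippocampus, 4 in striatum and 2 in brainstem, where 18%, 17.6% and 19.3% of all genes were called. In hippocampus 1 was higher and 2 were lower, against 7.51% and 10.4% of all genes. In striatum 2 were higher and 2 lower, against 12.5% and 5.11%, and both in brainstem were lower, against 7.71%. The median difference over the 10 genes was -0.07, -0.04 and -0.14, against 0.00, 0.06 and 0.02 over all genes. Without the second untested C3H HeJ array the brainstem median was 0.00, against 0.06 over all genes. BalbC/J had 2 called in each tissue, against 15.1%, 7.68% and 12.3%. Both were lower in hippocampus (8.76% of all genes) and in brainstem (3.83%), and in striatum 1 was higher (4.16%) and 1 lower (3.51%). C57L/J had 2 higher in hippocampus and in striatum, where 4.39% and 4.3% of all genes were called and 1.81% and 2.16% were higher. In C57L/J brainstem limma called 0, against 3.28% (3 at an unadjusted p under 0.05). C3H HeJ against BalbC/J had 2, 3 and 2 called, against 8.81%, 10.7% and 8.33%. These were 1 higher and 1 lower in hippocampus (4.27% and 4.54% of all genes), 1 higher and 2 lower in striatum (7.43% and 3.28%) and 2 lower in brainstem (5.14%). The C3H HeJ and BalbC/J comparisons share their C57BL6/J arrays. With 10 genes these counts are given as a description, and no test of the group was made.

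In C57BL10/J limma called 0 of the 10 genes against C57BL6/J, where it called 2.25% of all hippocampal, 0.536% of striatal and 2.75% of brainstem genes. At an unadjusted p under 0.05 there were 1, 2 and 3. In C57BLKS/J it also called 0, against 5.57%, 2.18% and 2.74% of all genes, with 4, 0 and 0 at an unadjusted p under 0.05. Without the second untested C3H HeJ array the brainstem counts were 5 in C3H HeJ (21.6% of all genes), 5 in BalbC/J (25.3%), 4 in C57BL10/J (12.1%), 0 in C57BLKS/J (7.71%) and 4 in C57L/J (9.12%), each against C57BL6/J. The test over 6 strains then called 7 of the 10 (37.7%), and C3H HeJ against BalbC/J 3 (9.91%).

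**Figure D4:**
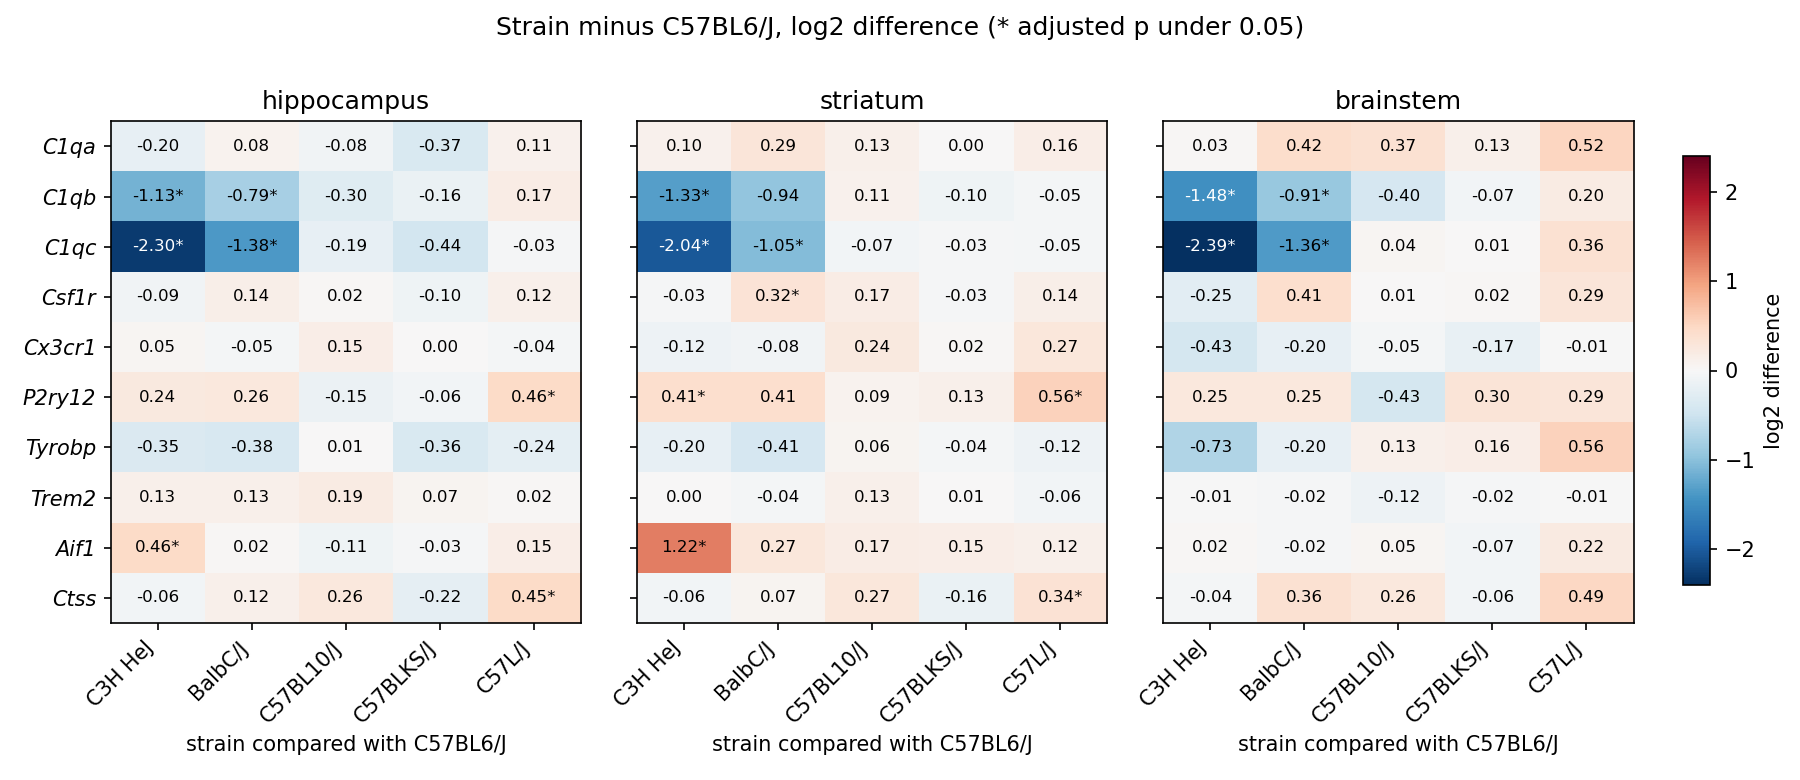
Differences from C57BL6/J in log2 units for the 10 genes (rows) in each strain and tissue (columns), with an asterisk where the adjusted p was under 0.05. The largest differences are those of C1qc in C3H HeJ, at -2.30, -2.04 and -2.39, and Aif1 in C3H HeJ striatum stands out in the other direction at 1.22.

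Prior testing for prepulse inhibition left no call. limma called 0 of the 10 genes between tested and untested mice in each tissue, as it did 0% of all genes. At an unadjusted p under 0.05 there was 1 in hippocampus (P2ry12, at -0.20), 1 in striatum (Cx3cr1, at -0.13) and 0 in brainstem. With 1 tested array per strain and tissue, this rests on 6 tested and 12 untested arrays in a tissue.

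Between tissues most of the 10 genes were highest in striatum, but 85.5% to 89.2% of all genes were also called between tissues, so the counts alone separate nothing. In hippocampus against brainstem 9 were called, 8 higher and 1 lower, where 85.5% of all genes were called, 40.5% higher and 45% lower. In striatum against brainstem 9 were called, 7 higher and 2 lower (89.2% of all genes, 29.1% higher and 60.2% lower). In hippocampus against striatum all 10 were called, 2 higher and 8 lower (87.1%, with 63.3% higher and 23.8% lower). The largest differences from brainstem were those of Aif1, higher by 1.05 in hippocampus and 1.64 in striatum, and of P2ry12, higher by 1.24 and 1.44. C1qc was higher in striatum than in brainstem by 0.92 and C1qb by 0.73, while in hippocampus they were higher by 0.21 and 0.24, calls lost under median centring (0.10 and 0.13) and quantile normalization (0.13 with an adjusted p of 0.0558, and 0.20 with 0.0506). Tyrobp lost its hippocampus minus brainstem call too, at 0.13 with median centring (adjusted p = 0.154) and 0.15 with quantile normalization (0.0919). The median of all genes was -0.31 for striatum minus brainstem and 0.24 for hippocampus minus striatum, and quantile normalization moved these to -0.10 and -0.01.

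Csf1r was higher in hippocampus than in brainstem by 0.61, but on its second probe set this was -0.65. Cx3cr1 ran against most of the others, with a hippocampal mean of 10.08 against 9.52 in striatum and 9.73 in brainstem. On its second probe set those signs turned, with hippocampus minus brainstem at -0.09, hippocampus minus striatum at -0.16 and striatum minus brainstem at 0.07. On its main probe set striatum minus brainstem was 0.04 under median centring (adjusted p = 0.498) and -0.02 under quantile normalization (0.717), neither called. Ctss was nearly level, at 11.74, 11.85 and 11.87 in hippocampus, striatum and brainstem, and its striatum minus brainstem difference of -0.02 became 0.22 under quantile normalization.

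A list of 24 further microglial genes, chosen with earlier results of these data known, had 7 of 19 hippocampal genes tested called over the 6 strains. In striatum 8 of 21 were called, and in brainstem 2 of 17, against 31.2%, 26.2% and 23% of all genes. Without the second untested C3H HeJ array the brainstem count was 7 of 17, against 37.7%. In C3H HeJ against C57BL6/J there were 4 called in hippocampus, of which 3 were lower, 6 in striatum, of which 4 were lower, and 2 in brainstem, both lower, against 18%, 17.6% and 19.3% of all genes. The median of the list was -0.09, 0.03 and -0.24. Without the array that stood apart the brainstem median was 0.03, with 3 of 17 called (1 higher, 2 lower; 21.6% of all genes). Single genes in it differed as much as C1qc. Olfml3, which encodes a secreted matrix protein, was called lower in C3H HeJ (-2.30, -1.72 and -1.93 in hippocampus, striatum and brainstem) and in C57L/J (-1.93, -1.88 and -1.85). Fcrls, an Fc receptor-like gene, was called lower in C3H HeJ (-1.79, -2.19 and -0.83) and in BalbC/J (-2.04, -3.20 and -0.83). Ly86 was called lower in C57L/J hippocampus (-0.72).

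Other complement genes were mostly low: 8 of 20 passed the filter in hippocampus and in brainstem and 7 in striatum. Over the strains 1 was called in hippocampus, 1 in striatum and 2 in brainstem, against 31.2%, 26.2% and 23% of all genes. Cd59a, whose product blocks the membrane attack complex, was higher in C57BL10/J by 0.95, 1.77 and 0.85 and in C57BLKS/J by 0.81, 1.57 and 0.62, all called. Among cathepsins and cystatin C, 5 of 10 were called over the strains in hippocampus and in striatum, and 3 of 11 in brainstem, against 31.2%, 26.2% and 23% of all genes. Ctsc, the gene of a protease that activates others, was higher in BalbC/J by 0.84, 1.06 and 0.88, and Cst3, the gene of the cathepsin inhibitor cystatin C, by 0.19, 0.32 and 0.35, all called. Of 17 genes linked to activated microglia only 4, 4 and 6 were tested, with 2, 1 and 3 called over the strains, against the same shares of all genes. Without the C3H HeJ brainstem array that stood apart, the brainstem counts were 4 of 8 complement genes, 5 of 11 cathepsins and cystatin C and 6 of 6 activation genes, against 37.7%. Lpl, which encodes lipoprotein lipase, was higher in C3H HeJ by 1.72, 0.96 and 0.87, all called. Of the ligands, Cx3cl1 was called lower in hippocampus, at -0.23 in C3H HeJ and -0.20 in BalbC/J.

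The members of the group did not move as one. Over the 18 strain-by-tissue means, centred within each tissue, the 45 pairs of the 10 genes had a median Pearson r of 0.19 (-0.55 to 0.96). Across single arrays, after each strain and tissue mean was removed, the median was 0.43 (-0.35 to 0.76), and 0.23 (-0.52 to 0.69) without the 3 C3H HeJ brainstem arrays. C1qa and C1qc had an r of 0.72 within groups (0.69 without those arrays), although their strain means differed. C1qa and C1qb had 0.26 and 0.01. These values share arrays and depth of signal and are descriptions.

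The genes whose strain pattern over the 18 means was nearest to each member are given with Pearson r, as likeness only. For C1qb they were C1qc (0.96), Pdxdc1 (0.96) and Frmd8 (0.95). For C1qc they were A530058N18Rik (0.97), C1qb (0.96) and Gatm (0.96). Each of these 2 genes was thus among the 3 nearest to the other out of all genes tested. For C1qa they were Cebpa (0.85), Tom1 (0.84) and Mrps10 (0.83), with neither of the other C1q genes among them. For Csf1r they were Fcgr3 (0.90), Dexi (0.87) and Akr1c14 (0.86). Fcgr3, the gene of a macrophage Fc receptor, was also called higher in BalbC/J brainstem (0.47). For Aif1 they were Dis3l and Bicc1 (both 0.95) and 4930429B21Rik (0.94), and for Tyrobp Prdx3 (0.95), Itch (0.93) and BC064078 (0.87). For Ctss they were Pxk (0.89), Atf7ip (0.88) and Pcdhb17 (0.86), and for P2ry12 Pnpla8 (0.88), A930005H10Rik (0.87) and Nhlrc1 (0.86). For Cx3cr1 they were Itpk1 (0.88), Adamts20 (0.87) and Neat1 (0.84). For Trem2, which varied little, the nearest were Gal3st2 (0.82), 1110019D14Rik (0.74) and Myoz1 (0.72).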

How the data were processed

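RNA of 54 samples (3 tissues, 6 strains, 3 pools each) was hybridised to Affymetrix arrays. The authors deposited log2 values, 1 column per array, from -0.20 to 16.89. Per the submitters' processing notes R 2.6.1, affy 1.16.0, RMA, GCRMA 2.10.0 and limma 2.12.0 were used, in roles that are not stated. Whether tissues were normalized together is not stated, so levels between tissues carry that limit. No scan date or batch was given, and none was tested.

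Of 45101 probe sets, 64 were controls, 34945 had 1 symbol in the platform annotation, 932 several and 9160 none. The deposited log2 values were used as they stand. For each of 18193 genes the probe set of highest mean over 54 arrays was kept, and 9010 genes had several. Testing in a tissue required a level above the 40th percentile of the array on 3 or more of the 18 arrays. limma 3.58.1 (in R 4.3.3, with the package data.table, version 1.17.8) fitted strain and testing in each tissue, with an intensity trend, and adjusted p-values by Benjamini-Hochberg over all genes tested. A fit on all 54 arrays gave tissue and strain-by-tissue differences. Standard errors are limma's. The code was tested on simulated data. Samples were grouped by the labels. The growth protocol names 5 of the strains and omits C57BL10/J, which was taken from the strain label.

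The 10 genes and the other gene lists were chosen with earlier results of these data known. The tissue markers Lct, Neurod6, Prox1, Slc6a5, Hoxb5, Drd2 and Ppp1r1b were chosen after the values were seen. Genes outside the 10 were named by a rule: up to 3 per list by smallest adjusted p over strains, the 3 with the most similar pattern to each gene, and the neighbours of C1qb and C1qc. Alternatives were other probe sets, filters, scalings, priors, array weights, a replicate block and leaving out each array. Replicate numbers were checked for pairing: deviations of same-numbered arrays within a tissue had median correlations of -0.04, -0.02 and -0.02 in hippocampus, striatum and brainstem, and arrays of the same strain and number in different tissues had medians of 0.10 (hippocampus and brainstem, 9 of 18 over 0.1), -0.01 (striatum and brainstem) and 0.02 (hippocampus and striatum). The numbers were therefore not taken to pair arrays. Pools of different tissues share mice, so the 54-array fit was also run with strain, testing and number as a random block (consensus correlation 0.0143).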

Additional observations from a re-analysis of the deposited data

Results flagged for a closer look

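The C3H HeJ minus C57BL6/J difference of Aif1 was not the same in each tissue, by the interaction term of the 54-array fit in limma. It was larger in striatum than in brainstem by 1.21 (SE 0.14, adjusted p = 1e-07). Hippocampus minus striatum was -0.77 (SE 0.14, adjusted p = 0.000424). All 3 C3H HeJ arrays were above all 3 C57BL6/J arrays in striatum and in hippocampus, while in brainstem the groups overlapped.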

How the results depend on the processing

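Values of called differences kept direction and call in 618 recomputations other than leaving out 1 array, were no longer called in 33 and reversed in 7. The called C1qc strain differences lost a call only for C3H HeJ minus BalbC/J in brainstem fitted on those 6 arrays (-1.03, adjusted p = 0.175), and leaving out arrays kept C3H HeJ minus C57BL6/J at -2.42 to -2.20, -2.14 to -1.93 and -2.52 to -2.23 in hippocampus, striatum and brainstem. The 7 reversed were, on the second probe set, Csf1r hippocampus minus brainstem (-0.65) and Cx3cr1 hippocampus minus brainstem (-0.09), hippocampus minus striatum (-0.16) and striatum minus brainstem (0.07), and with median centring, striatum minus brainstem for Cx3cr1 (0.04) and Trem2 (0.13) and hippocampus minus striatum for Trem2 (-0.19). Differences not called at first also turned sign and were then called: Ctss striatum minus brainstem (0.23 with median centring, 0.22 with quantile normalization) and, with array weights, Cx3cr1 in C3H HeJ hippocampus (-0.21) and Tyrobp in C57BL10/J hippocampus (-0.28), both against C57BL6/J. Causes were not tested.

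Counts of the 10 genes called against C57BL6/J moved by more than 1.5 times as follows. Array weights, whose fit did not converge in hippocampus and striatum, gave 8 and 4 in C3H HeJ hippocampus and brainstem (59.4% and 22.5% of all genes). They gave 7, 6 and 5 in BalbC/J hippocampus, striatum and brainstem (48.5%, 15.1% and 28.7%). C57BL10/J hippocampus and brainstem had 6 and 4 (45% and 19%), and C57BLKS/J hippocampus had 7 (42.1%). C57L/J hippocampus and brainstem had 4 and 4 (29.3% and 15.3%). C3H HeJ against BalbC/J in hippocampus had 5 (22.9%). In brainstem, fits on only the 6 arrays compared gave 1 in C3H HeJ (1.78% of all genes) and 5 in BalbC/J (20.5%). They gave 3 in C57BL10/J (11.2%) and 3 in C57L/J brainstem (3.56%). In C57L/J striatum they gave 0 (1.12%), and in C3H HeJ against BalbC/J in brainstem 0 (0.937%). BalbC/J striatum had 1 with no filter (4.37% of all genes) and on the second probe set (7.02%). C57L/J striatum had 1 with no filter, the second probe set, the mean of probe sets, no trend, quantile normalization, median centring and the replicate block. In these fits 2.46% to 4.74% of all genes were called. Median centring gave 4 in C3H HeJ against BalbC/J in brainstem (13.3% of all genes). The replicate block gave 1 in C57BLKS/J hippocampus (C1qa, -0.37, adjusted p = 0.0471; 5.08% of all genes). It moved no count by over 1.5 times beyond this and C57L/J striatum. Arrays share only a number.

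Leaving out 1 array gave 2 to 5 called in C3H HeJ brainstem, 2 to 4, 1 to 3 and 2 to 5 in BalbC/J hippocampus, striatum and brainstem, 0 to 1 and 0 to 4 in C57BL10/J hippocampus and brainstem, 0 to 2 in C57BLKS/J hippocampus, and 0 to 2 and 0 to 4 in C57L/J striatum and brainstem. At the highest of these counts, 21.6% to 21.7% of all genes were called in C3H HeJ brainstem. The share was 14.5% to 15.9% in BalbC/J hippocampus and 25.3% in its brainstem. It was 3.47% and 12.1% in C57BL10/J hippocampus and brainstem, 6.71% in C57BLKS/J hippocampus and 9.12% in C57L/J brainstem. At the lowest counts it was 4.71% to 6.97% in BalbC/J striatum and at most 3.09% in C57L/J striatum. C3H HeJ against BalbC/J had 2 to 4 in hippocampus (10.1% at 4) and 2 to 5 in brainstem (15.8% at 5). Over 6 strains brainstem had 3 to 7 (18.2% at 3), and strain by tissue had 1 to 3 (21.9% at 3). Ctss in C3H HeJ brainstem ranged from -0.17 to 0.19. Trem2, near the low end of the arrays, limits what can be said of it.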

Other observations

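Markers of other cells stood out on some arrays where the 10 genes did not. In brainstem, 3 blood leukocyte markers averaged 3.98 log2 units above their medians on the first untested C3H HeJ array and 2.39 on the next highest array. Choroid plexus markers, 6 genes, were highest on the first untested BalbC/J array in hippocampus (3.16, next 2.99) and in striatum (4.46, next 3.66). The antigen-presentation gene H2-Ab1 in brainstem was higher in BalbC/J by 0.99 than in C57BL6/J and called lower in C3H HeJ (-0.75). Apoe, which encodes a lipid carrier, was higher in C3H HeJ brainstem by 0.35, also called.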
